A study of Mus musculus with 15 samples.

Results

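*Slc24a3*, *Fam49a*, *Armcx2*, *Adgrl2*, *Atp6ap1l*, *Cfap126*, *Gm10863* and *Aldoart2* were transcribed in A20 parental cells and were nearly or completely without reads in 1 or 2 of 4 A20 clones. They are a list of 8 genes, out of 41388 genes counted, chosen by their read counts, which were 0 to 3 per library in 1 or 2 clones. All 8 met that rule in these counts, with at least 10 counts in every parental library and at most 3 counts in all 3 libraries of a clone. The rule was met by 37 of the 12469 genes with at least 10 counts in every parental library (0.297%), so 29 other genes met it as well. Because the clone counts chose the genes, their levels are given as a description without a test.

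A20 is a B-cell lymphoma line of BALB/c mice, and RNA was sequenced from wild-type A20 parental cells and from 4 lines carrying a CRISPR mutation of *Foxp1*, the gene of a forkhead transcription factor. Clones E6.1 and E6.2 were mutated in exon 6 and clones E7.1 and E7.2 in exon 7, and each line was grown from a single sorted cell. Every line therefore stands for 1 clone, while the parental line was not cloned in the same way. Each of the 5 lines has 3 libraries, collected at separate passages, so that the spread between libraries is that of passages of 1 line and not of independent clones.

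A line grown from 1 cell carries the expression state and the genome of that cell to all its descendants. A difference found in 1 clone and absent from a second clone made with the same guide is described for that clone only. The paper reports that the genetic changes of the clones are independent, so clones of the same guide may differ in their *Foxp1* mutation. Whether such a difference depends on the *Foxp1* mutation of its clone was not tested. Effects of the mutated gene are usually sought in changes that several clones share. RNA counts show the transcript and not the DNA, so that a deleted gene and a silent one both read as 0.

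The promoter windows of 3 of these genes are shown because they span the range of CpG content found among the genes, from few to many CpG dinucleotides, the sites of DNA methylation in mammals. The sequences are from RefSeq on GRCm38.p6, are written 5′ to 3′ on the strand of the gene, and cover 300 bases around the annotated start. Capitals mark each CG. The windows are chr2:145167525-145167824 on the plus strand for *Slc24a3*, chr12:12261927-12262226 on the plus strand for *Fam49a* (named Cyria by RefSeq) and chrX:134809172-134809471 on the minus strand for *Armcx2*.
Slc24a3: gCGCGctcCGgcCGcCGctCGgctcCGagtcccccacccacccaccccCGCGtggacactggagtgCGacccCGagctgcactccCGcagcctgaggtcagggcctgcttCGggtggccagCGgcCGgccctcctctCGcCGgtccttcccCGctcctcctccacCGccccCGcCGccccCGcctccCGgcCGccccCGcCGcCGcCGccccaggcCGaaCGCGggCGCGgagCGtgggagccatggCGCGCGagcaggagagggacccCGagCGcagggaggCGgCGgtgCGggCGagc
Fam49a: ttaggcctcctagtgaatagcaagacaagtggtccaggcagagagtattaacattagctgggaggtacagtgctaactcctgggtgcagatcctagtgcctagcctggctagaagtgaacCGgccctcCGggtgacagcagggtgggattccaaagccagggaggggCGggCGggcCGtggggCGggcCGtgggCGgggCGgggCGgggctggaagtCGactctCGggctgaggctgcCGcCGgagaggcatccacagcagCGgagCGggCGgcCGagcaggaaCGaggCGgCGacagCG
Armcx2: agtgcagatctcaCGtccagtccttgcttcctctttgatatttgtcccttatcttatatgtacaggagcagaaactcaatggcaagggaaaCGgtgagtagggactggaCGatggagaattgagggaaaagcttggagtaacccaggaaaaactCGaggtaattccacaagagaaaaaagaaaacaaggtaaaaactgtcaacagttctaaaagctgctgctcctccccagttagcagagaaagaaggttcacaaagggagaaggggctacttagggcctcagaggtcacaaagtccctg

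The *Slc24a3* window held 43 CpG, more than most promoters, and the *Fam49a* window held 22. Only 4 were found in the *Armcx2* window. A window was matched for 7 of the 8 genes, with 19 CpG in *Gm10863*, 12 in *Cfap126*, 9 in *Aldoart2* and 4 in *Adgrl2*. The *Adgrl2* window lies 34681 bases inside the 5′ end of the gene used for counting, so it may not be the start used in A20 cells. Over the 9615 tested genes with a window the median was 21 CpG, with quartiles of 13 and 29. The 7 lost genes, *Adgrl2* included, had a median of 12 CpG with quartiles of 6.5 and 20.5, a range that overlaps that of the tested genes. The 28 genes of the count rule that have a window include these 7 and had a median of 13.5. The other 21 had a median of 14. These medians were below that of the tested genes, a difference given here without a test. The sets were not matched for expression. In parental CPM per kilobase the 8 genes ranked from percentile 14.3 (*Aldoart2*) to 46.8 (*Armcx2*) of the tested genes. As many CpG as *Slc24a3* or more were present in 4.79% of the windows of tested genes, and as few as *Armcx2* or fewer in 8.03%. The forkhead motif TGTTTAC, searched on both strands (GTAAACA on the other), was in 2.42% of the windows of tested genes and in 0 of these 7. It was in 1 of the 28 windows of the count rule, that of 1 of the other 21 genes. At so low a share, 7 windows are too few for 0 to show a difference.

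**Figure D1:**
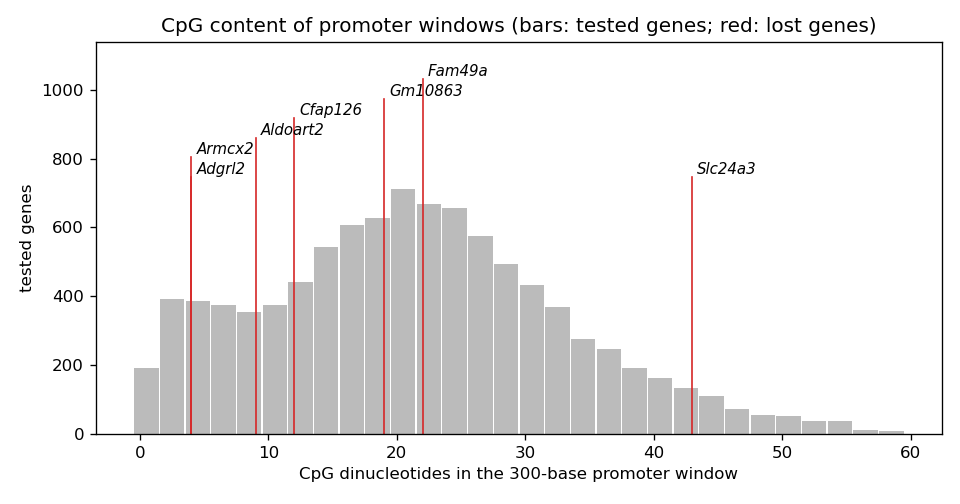
CpG dinucleotides per 300-base promoter window (x axis) against the number of tested genes (y axis, grey bars, 9615 genes). Red lines mark the 7 lost genes that have a window, which run from 4 CpG in *Armcx2* and *Adgrl2* to 43 in *Slc24a3*.

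Total counts ran from 26328054 to 39181530 per library, and 13904 genes passed the filter on low counts, the 8 genes among them. *Foxp1* itself was at 138 ± 32.7 CPM (counts scaled to library size, normalised by TMM, with the SD over n = 3) in parental cells, and fell in E7.1 (56.8 ± 13.0 CPM, adjusted p = 0.00688) and E7.2 (43.0 ± 8.19 CPM, adjusted p = 0.00116) by edgeR's quasi-likelihood test. In the exon 6 clones, E6.2 with 106 ± 2.38 CPM and E6.1 with 104 ± 4.60 CPM, it did not pass (adjusted p = 0.417 and 0.765). All libraries carried the B-cell markers, which summed to between 1229 and 2128 CPM over 6 genes and were lowest in E6.2. Of these markers only *Ms4a1*, the gene of CD20, was called, being lower in E6.2 (log2 fold change -0.91, SE 0.18, adjusted p = 0.0227 by edgeR). Markers of other cells summed to at most 3.58 CPM over 7 genes. The T-cell gene *Cd3e* was at 0 counts and the myeloid gene *Lyz2* at no more than 1 count in any library. Others on that list were read, with *Epcam* at 0.826 to 3.43 CPM and *Cd4* at up to 23 counts per library. The third library of E7.2 and the third of E6.2 had the lowest TMM factors, 0.826 and 0.906.

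*Slc24a3* encodes a potassium-dependent sodium-calcium exchanger that carries calcium out of the cell. It spans chromosome 2 from 145167754 to 145642166 (ENSMUSG00000063873, GRCm38, plus strand). The parental libraries held 299, 736 and 627 counts and the E6.2 libraries held 0, 0 and 0. The other exon 6 clone, E6.1, had 573, 483 and 709 counts, while E7.1 had 344, 424 and 378 and E7.2 had 418, 430 and 1395. E6.2 alone was without the transcript, and the other 3 clones overlapped with the parental libraries. Set against a floor of 3 counts over the 3 libraries, the level in E6.2 was at least 485-fold lower than in the pooled parental libraries. This bound, like those below, leaves out the spread between parental libraries. The third E7.2 library stood apart at 44.7 CPM, against 11.0 and 11.5 CPM in the others, which gave E7.2 a mean of 22.4 ± 19.3 CPM (SD, n = 3). In parental cells the mean was 15.6 ± 5.77 CPM. As these are bulk samples, fewer cells with a transcript and less of it per cell cannot be told apart.

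*Fam49a* codes for a protein related to Fam49b, which binds the small GTPase Rac1 and restrains actin remodelling by the Scar/WAVE complex. Its locus is on chromosome 12 from 12262139 to 12376359 (ENSMUSG00000020589, plus strand). It had 222, 243 and 265 counts in the parental libraries and 0, 0 and 0 in E7.1, at least 255-fold lower. E6.1 held 454, 487 and 608 counts, E6.2 held 153, 293 and 310, and E7.2 held 416, 395 and 233. The gene was thus absent from 1 exon 7 clone and present in the other, and its E6.1 libraries all lay above the parental ones. The E6.1 mean was 15.2 ± 0.764 CPM against 6.97 ± 0.654 CPM in parental cells (SD, n = 3), a ratio of 2.18.

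*Armcx2*, on the X chromosome from 134804145 to 134809221 (ENSMUSG00000033436, minus strand), belongs to a family of armadillo-repeat proteins, several of which sit on mitochondria. Parental libraries held 787, 786 and 820 counts. E6.1 held 0, 1 and 0, a fold of 2329 below parental with a 95% counting interval from 418 to 92029 because a single read sets it. It was the most highly expressed of the 8 genes per length of exon, at 5.05 CPM per kilobase in parental cells. The remaining clones had 513, 822 and 543 counts (E6.2), 241, 328 and 264 (E7.1) and 472, 537 and 387 (E7.2). E6.2 overlapped with the parental libraries, and both exon 7 clones lay below them without reaching 0. The exon 7 means were 7.57 ± 0.997 CPM in E7.1 and 13.1 ± 1.08 CPM in E7.2 against 22.9 ± 1.65 CPM in parental cells.

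*Adgrl2* encodes latrophilin 2, an adhesion G protein-coupled receptor. It spans chromosome 3 from 148815586 to 148989316 (ENSMUSG00000028184, minus strand) and is long and sparsely read, at 0.533 CPM per kilobase in parental cells. Counts were 164, 138 and 165 in parental cells and 0, 0 and 0 in E6.2, at least 136-fold lower. In E6.1 they were 35, 67 and 39, in E7.1 367, 280 and 231, and in E7.2 246, 265 and 132. The exon 6 clones were both below the parental range, by different amounts, whereas E7.1 was above it and E7.2 overlapped with it. E6.1 kept 0.318 of the parental mean and E7.1 reached 1.77 times that mean.

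*Atp6ap1l* is a relative of *Atp6ap1*, which encodes an accessory subunit of the vacuolar proton pump (V-ATPase). It lies on chromosome 13 from 90883433 to 90905355 (ENSMUSG00000078958, minus strand). There were 111, 51 and 84 counts in parental cells and 0, 0 and 0 in E6.2, at least 71.7-fold lower. E6.1 had 145, 155 and 155 counts, E7.1 had 127, 153 and 102, and E7.2 had 69, 64 and 46. The 2 exon 6 clones were therefore at the opposite ends, since E6.1 was the only clone wholly above the parental libraries, at 1.89 times their mean.

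*Cfap126*, the gene of a cilia and flagella associated protein, is on chromosome 1 from 171113918 to 171126967 (ENSMUSG00000026649, plus strand). Its counts were 42, 67 and 71 in parental cells and 0, 0 and 0 in E7.1, at least 63.0-fold lower. E6.1 held 82, 71 and 85, E6.2 held 90, 64 and 65, and E7.2 held 73, 80 and 52. Away from E7.1 its level varied little, with E6.1 just above the parental libraries and clone means from 1.91 to 2.48 CPM against 1.71 ± 0.405 CPM in parental cells (SD, n = 3).

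*Gm10863*, annotated as a processed transcript with no protein product, spans chromosome 15 from 79166041 to 79227524 (ENSMUSG00000075555, plus strand). Parental libraries held 174, 206 and 219 counts. E7.2 held 2, 2 and 1 counts, 122-fold lower with a 95% counting interval from 51.9 to 376. E6.1 held 25, 22 and 22, E6.2 held 202, 212 and 151, and E7.1 held 116, 234 and 126. Low expression was thus seen in 1 clone of each guide, with E7.2 near 0 and E6.1 at 0.688 ± 0.124 CPM, a ratio to parental of 0.120.

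*Aldoart2* is a single-exon retrogene of the glycolytic enzyme aldolase A, on chromosome 12 from 55565239 to 55566896 (ENSMUSG00000063129, plus strand). It is the weakest of the genes, with 12, 25 and 33 counts in parental cells, and the only one near 0 in 2 clones. Both were exon 6 clones, with 0, 0 and 0 counts in E6.1 and 0, 1 and 2 in E6.2. E7.1 had 7, 33 and 12 counts and E7.2 had 25, 31 and 25, which overlapped with the parental libraries. The level in E6.1 was at least 22.7-fold lower than parental, and that in E6.2 20.4-fold lower with a 95% counting interval from 6.70 to 101. Of the 1609 windows of 50 bases in its transcript, 0.311% matched a transcript of another gene exactly, that of *Aldoart1*. For the other 7 genes at most 1.57% of such windows were shared.

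**Figure D2:**
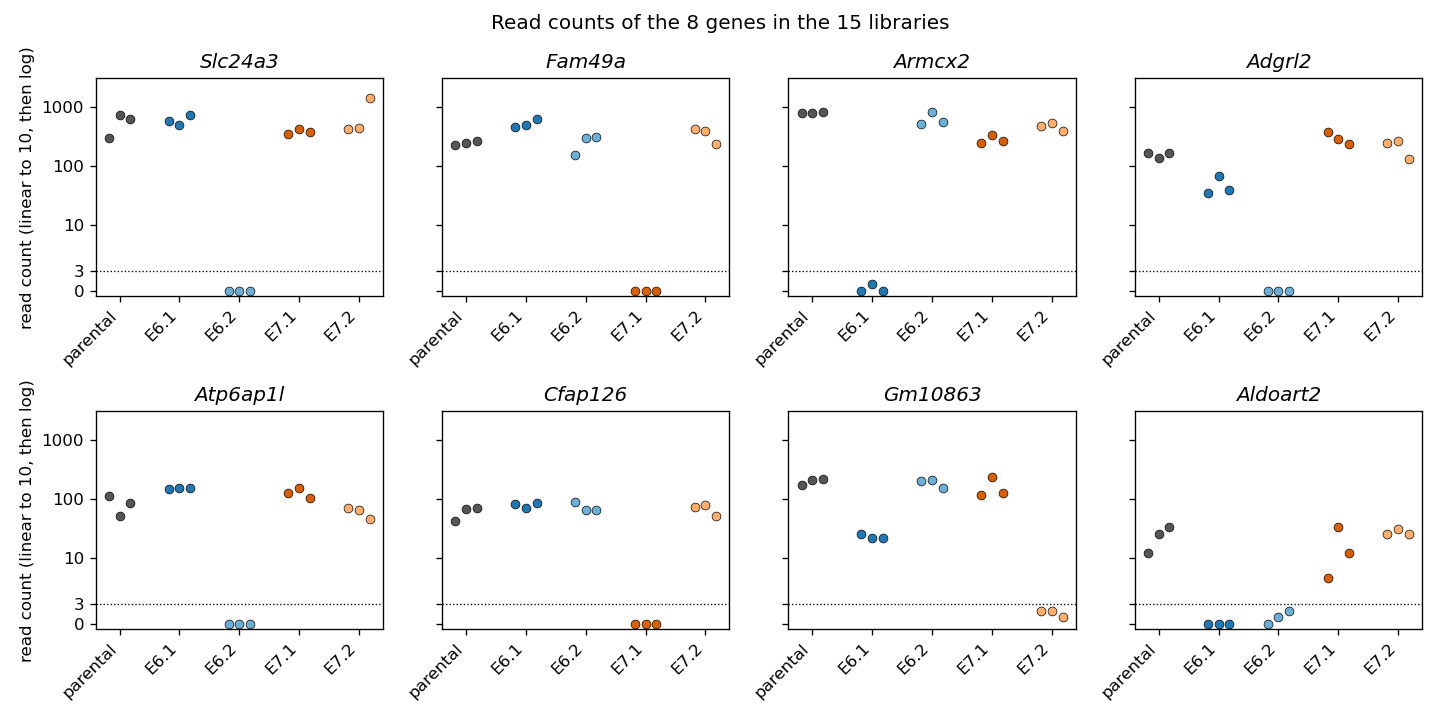
Read counts (y axis, linear up to 10 and logarithmic above) of the 8 genes in each library, by line (x axis, 3 points per line). The dotted line marks 3 counts, below which E6.2 falls for *Slc24a3*, *Adgrl2*, *Atp6ap1l* and *Aldoart2*, E7.1 for *Fam49a* and *Cfap126*, E6.1 for *Armcx2* and *Aldoart2*, and E7.2 for *Gm10863*.

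In the chosen list of 8 genes, 4 losses were in E6.2, 2 in both E7.1 and E6.1, and 1 in E7.2. The 37 genes that met the rule were lost 14 times in E6.2, 12 times in E7.1, 9 times in E7.2 and 8 times in E6.1. Of these genes 31 were lost in 1 clone and 6 in 2 clones, while a further 2 genes were lost in 3 clones and 4 in all 4. When every gene near 0 in a clone is counted, whatever the other clones show, the share of expressed genes was 0.12% in E7.2, 0.144% in E7.1, 0.144% in E6.2 and 0.112% in E6.1. Non-overlap with the parental libraries was far more frequent, at 24.2% of tested genes in E7.2, 32.0% in E7.1, 14.7% in E6.2 and 22.5% in E6.1, counting a difference of any size. The 8 genes lie on 7 chromosomes, with *Fam49a* and *Aldoart2* both on chromosome 12.

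Among the 10194 expressed genes with a parental mean of at least 100 counts, 7 were lost in 1 or 2 clones, and 5 of them were *Slc24a3*, *Fam49a*, *Armcx2*, *Adgrl2* and *Gm10863*. The others were *Slc7a11*, the cystine transporter, with 544 to 1523 parental counts and 0 in all 3 E6.2 libraries, and *Phyhip*, with 85 to 114 parental counts and 0 to 2 in E6.1. *Phyhip* was low in every clone, with 2 to 7 counts in E6.2, 2 to 5 in E7.1 and 1 to 4 in E7.2. At the edge of the rule, *Rhod* in E7.1 and *Gm15128* in E7.2 reached 3 counts and were inside it, with 59 to 82 and 62 to 88 parental counts. *Phyhip* and *Gm6445* in E7.2 reached 4 counts and were outside it for that clone, the latter with 37 to 54 parental counts. None of the 8 genes was this close, since their highest count in a lost clone was 2, in *Gm10863* and *Aldoart2*.

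Whether the genes around a lost gene moved with it was then examined. The 5 nearest tested genes on each side were taken, which the choice of the 8 genes did not use. Over the 9 pairs of a lost gene and its clone this gave 90 tests on 80 distinct genes. By the quasi-likelihood test of edgeR, with p adjusted over all tested genes by Benjamini-Hochberg, 1 neighbour was lower and 0 were higher at an adjusted p under 0.05, and 12 had an unadjusted p under 0.05. Over all tested genes the share with an unadjusted p under 0.05 was 13.3% in E7.2, 20% in E7.1, 13.1% in E6.2 and 6.71% in E6.1. The share of all tested genes called lower was 0.209% in E7.2, 0.82% in E7.1, 1.01% in E6.2 and 0.266% in E6.1, and the share called higher was 0.0863%, 0.396%, 0.165% and 0.0575%, so that 1 in 90 is close to the background. The median log2 fold change of the 90 was 0.03.

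The neighbours at close range kept their reads. *Sdhc*, which encodes a subunit of succinate dehydrogenase and starts 197 bases from *Cfap126*, had 1661 to 2218 counts in parental cells and 2278 to 2992 in E7.1 (log2 fold change 0.38, SE 0.18, adjusted p = 0.256 by edgeR). *Pick1*, a scaffold protein gene 1648 bases from *Gm10863*, had 429 to 574 counts in parental cells and 469 to 539 in E7.2 (log2 fold change -0.01, SE 0.20). *Rps23*, a ribosomal protein gene 17775 bases from *Atp6ap1l*, had a log2 fold change of 0.09 (SE 0.39) in E6.2. In the cluster of Armcx genes on the X chromosome, *Armcx3*, at a distance of 42689 bases, had 475 to 719 counts in E6.1 against 570 to 664 in parental cells (log2 fold change -0.09, SE 0.21). None of these 4 passed the test.

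*Slc24a3*, *Fam49a* and *Adgrl2* are more isolated. The nearest tested genes to *Slc24a3* were 259932 bases away (*Naa20*, log2 fold change -0.21, SE 0.14) and 409171 bases away (*Gm11743*, 1.22, SE 1.21). Those of *Fam49a* were at 238481 bases (*Gm4294*) and 535626 bases (*Rpl36-ps3*), and those of *Adgrl2* at 1083273 (*Rpsa-ps10*) and 1976238 bases (*Gm10288*), none of them called. Near *Slc24a3* the zinc finger gene *Insm1* was at a log2 fold change of -1.82 (SE 0.45) in E6.2 and did not pass (adjusted p = 0.0834 by edgeR). It was lower in E7.1 (-2.71, SE 0.47, adjusted p = 0.0175) and was at -1.48 (SE 0.44, adjusted p = 0.218) in E7.2, both clones that kept *Slc24a3*. Inside the *Slc24a3* span, 5 short annotated genes were too weakly read to test. Of these, *Gm11759* held 9 counts over the 3 E6.2 libraries and 10 over the parental ones, *Gm22390* held 0 and 6, *Gm14092* held 0 and 5, and the other two held 0 in all lines.

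The neighbour that fell was *Brms1l*, which encodes a subunit of the Sin3 histone deacetylase complex and lies 269469 bases beyond *Aldoart2* (chromosome 12, 55836366 to 55869735). It had 3619, 3581 and 3505 counts in parental cells and 1136, 1548 and 2031 in E6.2, a log2 fold change of -1.01 (SE 0.14, adjusted p = 0.00173 by edgeR). Its course across the clones was not that of *Aldoart2*. It was also lower in E7.1, where *Aldoart2* was read (1927, 1905 and 1666 counts, log2 fold change -1.03, SE 0.14, adjusted p = 0.00255). In E6.1, where *Aldoart2* was at 0, *Brms1l* had 3659, 4851 and 5824 counts (log2 fold change 0.45, SE 0.14) and was not called (adjusted p = 0.392). *Ralgapa1*, between the 2 genes, was at -0.17 (SE 0.12) in E6.2 and was not called. When only the 6 libraries of E6.2 and parental cells were used, the adjusted p of *Brms1l* in E6.2 was 0.0729.

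**Figure D3:**
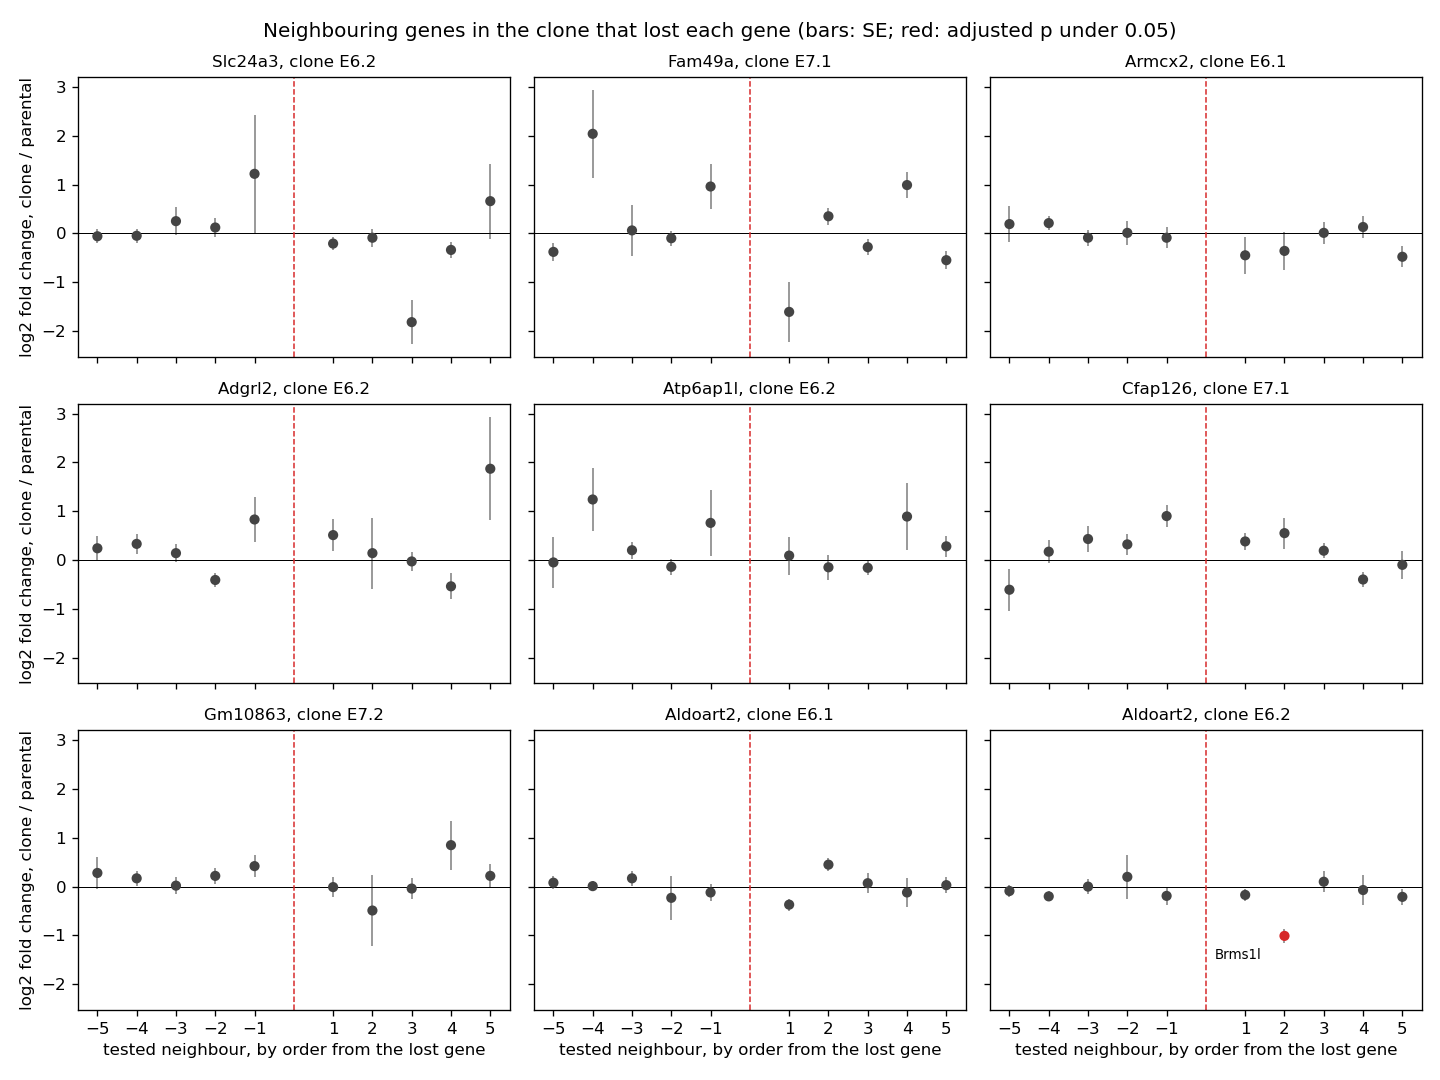
Log2 fold change against parental cells (y axis, bars show the SE) of the 5 nearest tested genes on each side of each lost gene (x axis, order from the lost gene, which is at the dashed line), in the clone that lost it. *Brms1l* in E6.2, at -1.01, is the only one of 90 points called, and the points around the other 8 pairs scatter on both sides of 0.

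Relatives and functional partners of the 8 genes were tested next, from lists that held 77 tested genes in all. By edgeR with Benjamini-Hochberg adjustment, 1 of 77 was lower in E6.1, 1 was lower in E6.2, and 0 were called in either exon 7 clone. Without adjustment 14 of them had a p under 0.05 in E7.2, 20 in E7.1, 12 in E6.2 and 4 in E6.1, to be read against the unadjusted shares given for the neighbours. With adjustment, the background for either direction was 0.295% of tested genes in E7.2, 1.22% in E7.1, 1.17% in E6.2 and 0.324% in E6.1. Their median log2 fold changes, in the same order, were -0.03, -0.05, -0.02 and -0.04, against 0.00, -0.02, 0.06 and 0.00 over all tested genes.

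Of the 18 tested genes of calcium transport, *Slc24a2* was the one called. It encodes another exchanger of the same family on chromosome 4 (86983124 to 87230477) and fell in the clone that lost *Slc24a3*. Parental libraries held 460, 449 and 482 counts and E6.2 held 76, 106 and 57. E6.1 held 405, 332 and 526, E7.1 held 339, 404 and 291, and E7.2 held 401, 360 and 263. The E6.2 libraries were far below those of every other line, with a log2 fold change of -2.34 (SE 0.22, adjusted p = 5.73e-05 by edgeR). Among the other exchangers, *Slc24a5* was at -0.05 (SE 0.48) in E6.2 and *Slc24a4* was near 0 in all lines. *Slc24a1* rested on few reads in parental cells, from 2 to 10 counts, and ran from 0 to 115 counts in E6.2.

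In the list of 14 tested cilia and flagella genes the one called was *Cfap300*, on chromosome 9 (8021672 to 8042823), whose product takes part in the assembly of ciliary dynein. It fell in E6.1, which kept *Cfap126*. Its counts were 316, 351 and 406 in parental cells and 57, 47 and 74 in E6.1 (log2 fold change -2.56, SE 0.22, adjusted p = 2.87e-05 by edgeR). In E7.1, the clone that lost *Cfap126*, there were 337, 365 and 273 counts of *Cfap300* and it was not called (log2 fold change -0.21, SE 0.20, adjusted p = 0.584).

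**Figure D4:**
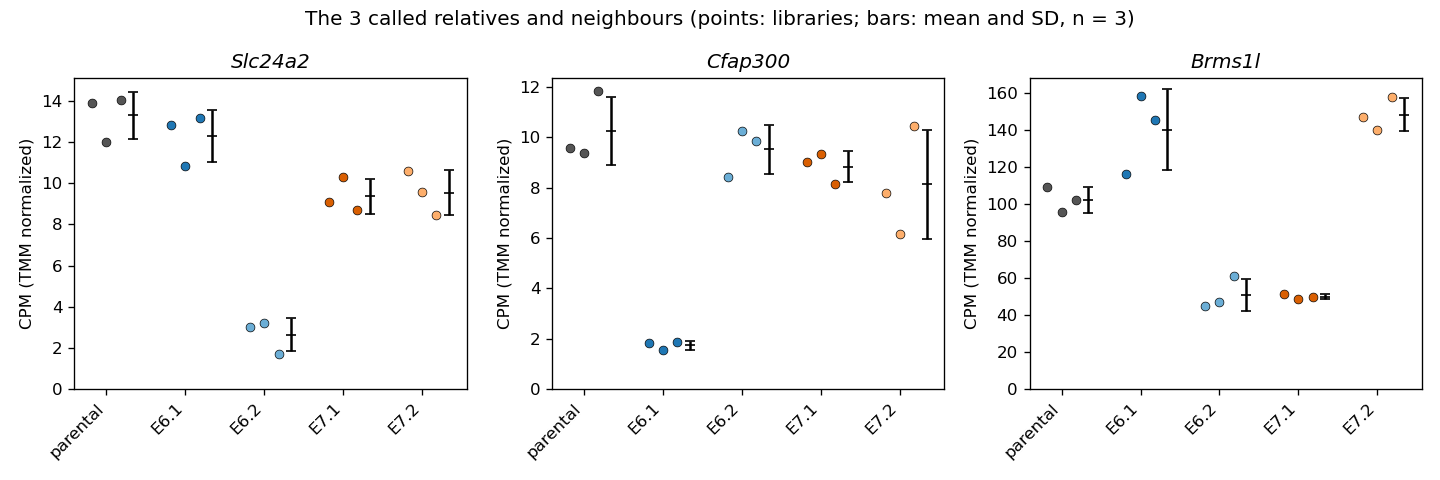
CPM (y axis, TMM normalised) of *Slc24a2*, *Cfap300* and *Brms1l* in each library by line (x axis), with the mean and SD of 3 libraries. *Slc24a2* is lowest in E6.2, at a mean of 2.64 CPM, *Cfap300* in E6.1, at 1.73 CPM, and *Brms1l* in E7.1 and in E6.2, the latter at 50.9 CPM.

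The closest relatives of the other lost genes were not called. *Fam49b*, at 329 CPM in parental cells and so read far more than *Fam49a*, was at a log2 fold change of 0.04 (SE 0.15) in E7.1. Of the Armcx family, *Armcx3*, *Armcx5* and *Armcx6* were at -0.09, 0.01 and 0.01 (SE 0.21, 0.23 and 0.24) in E6.1, and *Armcx1* and *Armcx4* were without reads or nearly so in all lines. *Adgrl1*, another latrophilin gene, was at 0.67 (SE 0.31) in E6.2, and *Adgrl3* and *Adgrl4* held at most 3 counts per library. *Atp6ap1* was at 0.09 (SE 0.14) in E6.2, and none of the 20 tested V-ATPase genes was called in any clone.

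The aldolases gave no call either. *Aldoa* was at 0.09 (SE 0.34) in E6.1 and 0.47 (SE 0.34) in E6.2, the clones without *Aldoart2*. *Aldoa*, *Aldoc* and *Aldoart1* had their highest estimates in E7.2, at 0.91, 1.63 and 0.73, and none passed (adjusted p = 0.301, 0.103 and 0.491 by edgeR).

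**Figure D5:**
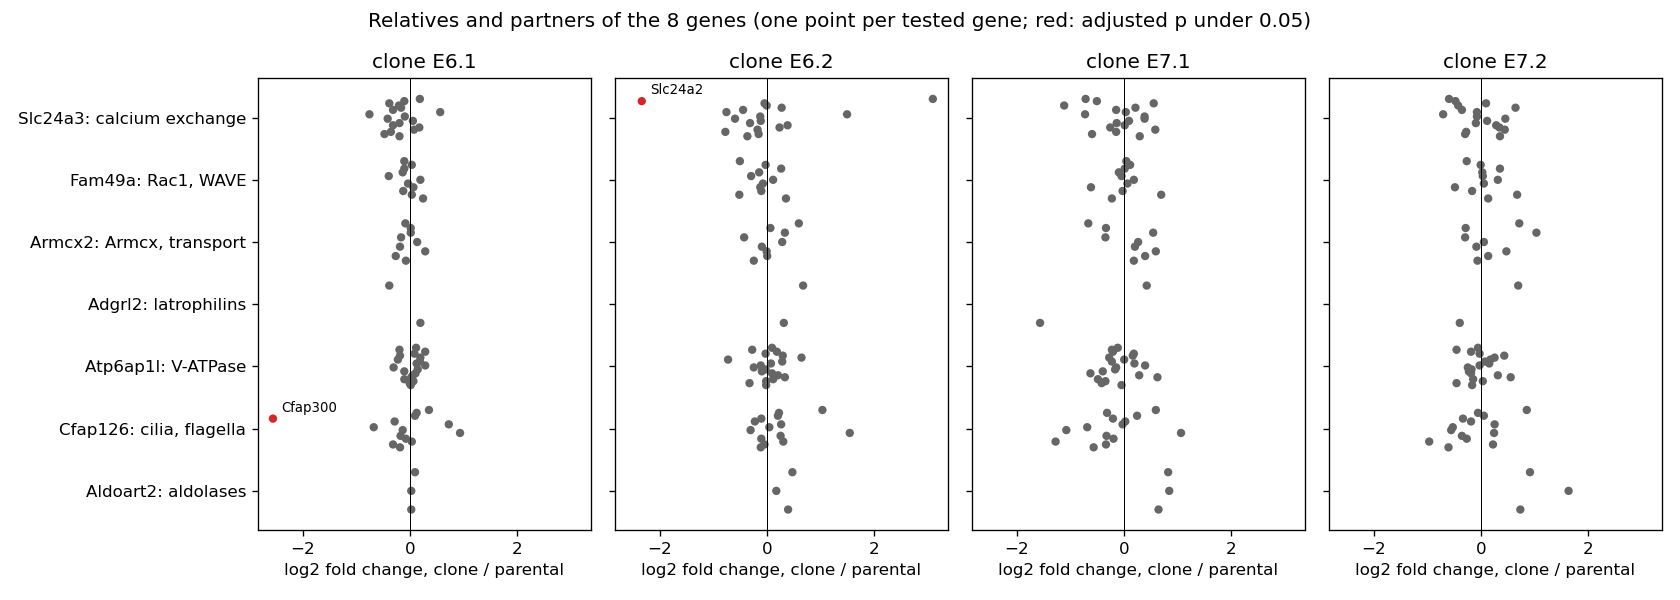
Log2 fold change against parental cells (x axis) of the 77 tested relatives and partners, by list (y axis) and clone (panels). The 2 red points are those called, *Cfap300* at -2.56 in E6.1 and *Slc24a2* at -2.34 in E6.2.

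The genes whose profile was most like that of each lost gene were found by Pearson's correlation of log2(CPM + 0.1) over the 15 libraries, which share depth and line and in which 1 clone at 0 sets most of the correlation. Such a correlation does not reflect the size of a change, so a close match need not be a lost gene. *Fam49a* and *Cfap126*, both lost in E7.1, were each other's closest match (r = 0.980), although they lie on different chromosomes. Both were followed by the zinc finger gene *Zfp941* (r = 0.975 and 0.978), with 133, 136 and 155 counts in parental cells and 6, 0 and 0 in E7.1. For *Slc24a3* the closest were *Timd2*, of the TIM receptor family (r = 0.975, 5958 to 7006 counts in parental cells and 199 to 570 in E6.2), and *Sumf2*, of the sulfatase-modifying factors (r = 0.961, 358 to 642 and 2 to 7 counts). For *Armcx2* they were *Cfap300* (r = 0.968), the gene described above, and *Dync1li1*, a dynein light intermediate chain (r = 0.948). *Dync1li1* was still at 22.9 to 27.0 CPM in E6.1, against 44.8 to 52.8 CPM in parental cells.

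*Adgrl2* and *Atp6ap1l*, both lost in E6.2, had different closest genes. *Scp2*, a sterol carrier protein (r = 0.970), and *Sh3pxd2a*, the gene of a podosome scaffold (r = 0.958), were nearest to *Adgrl2*. In E6.2 *Scp2* was still at 65.0 to 74.2 CPM, against 89.9 to 102 CPM in parental cells. *Sh3pxd2a* was at 1.10 to 1.20 CPM there, against 4.94 to 8.50 CPM. *Gypc*, glycophorin C (r = 0.972), and *Prkca*, the gene of protein kinase C alpha (r = 0.970), were nearest to *Atp6ap1l*. *Gm10863* was closest to *Spata6* (r = 0.968), which had 43 to 66 counts in parental cells, 10 to 23 in E6.1 and 1 to 5 in E7.2, and then to the calcium channel gene *Mcoln3* (r = 0.889). Both were thus low in the same pair of clones as *Gm10863*. *Aldoart2* was closest to *AB124611* (r = 0.942), with 62 to 91 counts in parental cells, 0 to 9 in E6.1 and 5 to 8 in E6.2, and to *Atmin*, the gene of an interactor of the ATM kinase (r = 0.914). *Atmin* ran from 73.7 to 80.9 CPM in parental cells, 56.1 to 60.1 CPM in E6.1 and 61.5 to 66.2 CPM in E6.2.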

How the data were processed

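RNA from 15 libraries of 5 A20 lines was analysed, 3 per line. Per the file headers and the submitters' processing notes, the authors aligned reads with HISAT and counted read pairs per gene with featureCounts 1.5.0 on GRCm38, ignoring strand and leaving out pairs that mapped to several places or genes, so the deposited values are raw counts. Reads of overlapping genes on either strand, such as those inside *Slc24a3*, are therefore uncertain. The 92 spike-ins were left out, and 40254 of 41388 genes were matched to symbols in GENCODE.

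Counts were fitted in R 4.3.3 with edgeR 4.0.16 (filterByExpr, TMM, glmQLFit and glmQLFTest) over all 15 libraries, with 1 coefficient per line. Clones were set against parental cells 1 at a time, with Benjamini-Hochberg adjustment per clone, and genes under an adjusted p of 0.05 were called. The method was tested on simulated data. CPM are TMM normalised. Library floors of 3 counts were 0.0751 to 0.118 CPM, and folds against 0 use 3 counts over 3 libraries. Folds, floors and exact Clopper-Pearson intervals (95%) use the pooled libraries of a line. They cover counting error only and not the spread between libraries. All comparisons share the parental libraries.

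The genes and lists were chosen with earlier results of these data known. The genes named are the 8 genes, their nearest neighbours and called ones, called or closest relatives, the 5 other genes that met the count rule with the highest parental level in each clone, and the 2 most similar genes. *Insm1*, *Gm6445*, the genes inside *Slc24a3* and *Ralgapa1* were named after their values were seen. Alternatives were DESeq2 1.42.0's Wald test and size factors, no filter, only the 6 libraries compared, a replicate block, other count limits and leaving out each library. Leaving out the third libraries of E6.2 and E7.2 together was chosen after seeing the data.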

Additional observations from a re-analysis of the deposited data

Results flagged for a closer look

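Some genes moved in opposite directions in different clones, with every library of one clone above the parental libraries and every library of another below them. These differences between clones were not tested. For the lost genes among them, the clone at 0 counts was set by how the genes were chosen. Non-overlap with the parental libraries in either direction was frequent, from 14.7% of tested genes in E6.2 to 32.0% in E7.1. Those shares are for single clones. The share of tested genes with the opposed pattern is not given, so whether the genes named here are unusual is not known. *Fam49a* was at 2.18 times the parental mean in E6.1 and at 0 counts in E7.1. *Adgrl2* was at 1.77 times the parental mean in E7.1 and below the parental libraries in E6.1 and E6.2. *Atp6ap1l* was at 1.89 times the parental mean in E6.1 and at 0 counts in E6.2, the other exon 6 clone. *Cfap126* was at 1.38 times the parental mean in E6.1 and at 0 counts in E7.1. Its lowest E6.1 library, at 2.13 CPM, was only just above the highest parental one, at 2.07 CPM. *Brms1l*, the neighbour of *Aldoart2*, was at 1.37 times the parental mean in E6.1 and 1.45 times in E7.2, and below the parental libraries in E6.2 and E7.1.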

How the results depend on the processing

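The counts of called genes moved with the processing, whereas *Slc24a2* in E6.2 and *Cfap300* in E6.1 were called under all 21 alternatives (highest adjusted p = 0.0306 and 0.00119) and *Brms1l* in E6.2 under 20, being lost only with the 6 libraries compared (adjusted p = 0.0729). With 1 neighbour called at first, DESeq2 called 4, no filter 3, the replicate block 2, the 6 libraries alone 0, and leaving out replicate 3 of both E7.2 and E6.2 gave 5. Relatives called in E7.2, E7.1, E6.2 and E6.1 (0, 0, 1 and 1) were, in that order, 2, 4, 3 and 2 with DESeq2 and 3, 11, 3 and 2 without those libraries, and 1, 1 and 2 in the first 3 of these without the filter. All genes called (41, 169, 163 and 45) were 254, 1157, 398 and 155 with DESeq2 and 219, 2166, 323 and 132 without those libraries. They were 74 in E6.1 and 343 in E7.1 without the filter, and 18, 45 and 111 in E7.2, E6.2 and E6.1 with the 6 libraries alone. The cause was not tested.

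Leaving out 1 library at a time gave 1 to 3 called neighbours, with 2 without E6.2 replicate 2 and 3 without E6.2 replicate 3, E7.2 replicate 3 or parental replicate 1. Relatives called ran from 1 to 2 in E6.1 (2 without E7.2 replicate 3), 1 to 2 in E6.2 (2 without E6.2 replicate 2 or 3 or E7.2 replicate 3), 0 to 4 in E7.1 (4 without E6.2 replicate 3 or parental replicate 1) and 0 to 3 in E7.2 (3 without E6.2 replicate 3). All genes called ran from 28 (without E6.1 replicate 1) to 69 (E6.2 replicate 3) in E6.1, from 83 (parental replicate 1) to 228 (E7.2 replicate 3) in E6.2, from 30 (parental replicate 2) to 1011 (E6.2 replicate 3) in E7.1 and from 14 (parental replicate 3) to 191 (E6.2 replicate 3) in E7.2. The 37 genes of the count rule became 38 to 60, the latter without parental replicate 3. With 0 counts required in a lost library 15 genes met it, of which 6 were among the 8, and with up to 5 counts 71 did. With at least 5 counts in a parental library 128 did, and with at least 30 counts 14 did, of which 7 were among the 8. Size factors in place of TMM moved no count by over 1.5 times.

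The replicate numbers were not taken to pair the samples. Libraries of the same number did not deviate together in every pair, with correlations from -0.124 to 0.213. This check cannot exclude an effect shared by some libraries of 1 number. In E7.2 all 3 libraries correlated best with their own number, and the block changed no other count by over 1.5 times. Depth limits *Aldoart2* most, with 12 to 33 parental counts.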

Other observations

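The reverse pattern was at most 3 counts in every parental library and at least 10 in all libraries of 1 or 2 clones. It was met by 14 of the 25040 genes this weak in parental cells. The losses were 37 of the 12469 genes with at least 10 counts in every parental library. These pools differ, so the numbers do not compare gains with losses. E6.2 had the most gains, 8, against 5 in E6.1, 1 in E7.2 and 0 in E7.1. The gains named here were chosen after their values were seen. *Mmrn1*, which encodes multimerin 1, had 0 to 1 counts in parental cells and 362, 332 and 104 in E6.2. *Dhh*, the gene of the desert hedgehog ligand, had 2 to 3 counts in parental cells, 0 in the libraries of E6.1, E7.1 and E7.2, and 68, 78 and 40 in E6.2. *Gm13715* had 0 counts in parental cells and 76 to 135 in E6.1.

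Other genes that met the rule for a loss were mostly weaker. In E6.2 they included *H1fx*, a linker histone gene with 44 to 103 parental counts and 0 to 1 in the clone, and it also held only 2 to 4 counts in E7.1. *Aldh1a2*, which makes retinoic acid, had 62 to 75 parental counts and was low in every clone, with 0 to 3 counts in E6.2 and 0 to 2 in E7.2, which met the rule, and 3 to 5 in E6.1 and 0 to 12 in E7.1, which did not. *Colq*, the collagen tail of acetylcholinesterase, had 25 to 38 parental counts and was lost in E6.2 and E7.1, with 0 to 4 counts in E7.2. *Lpar5*, a lysophosphatidic acid receptor gene, had 25 to 34 parental counts and 0 to 3 in E6.1. *Nedd9*, a docking protein gene, had 27 to 30 parental counts and 1 to 3 in E7.2, beside 1 to 5 in E6.1, 2 to 8 in E6.2 and 4 to 24 in E7.1.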
